A study of Mus musculus with 27 samples.

Results

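The core circadian clock genes, 10 in number, were followed in the livers of HGFAC-KO mice and their littermate controls, fed either chow or the HF/HS diet, which is rich in fat and sucrose. They were taken by symbol from the count table, where each of the 10 had its own row among 23191 gene symbols, and all 10 passed the filter on low counts in every comparison. *Arntl*, *Clock* and *Npas2* form the positive limb, *Per1*, *Per2*, *Per3*, *Cry1*, *Nr1d1* and *Nr1d2* the negative limb, and *Dbp* is an output gene. RNA-Seq had been done on liver from 27 male C57BL/6J mice, 8 weeks old at the start of feeding, which were 7 control mice on chow, 6 HGFAC-KO mice on chow, 7 control mice on HF/HS diet and 7 HGFAC-KO mice on HF/HS diet. The HGFAC-KO mice carried a whole-body deletion within *Hgfac*, which encodes a liver-secreted protease that activates hepatocyte growth factor, so the deletion was not limited to liver. The chow groups ate standard chow, and the other groups the purified HF/HS diet, for 4 weeks. Mice were kept under a light and dark cycle, and the hour at which livers were taken for RNA-Seq is not given in the sources used here. Liver triglyceride of the same 4 groups was measured in mice refed after an overnight fast, and whether the RNA-Seq livers came from those mice is not given. A mouse is named below by its group and replicate number, and each is a separate animal.

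The mammalian clock is a transcriptional loop that runs in nearly every cell and is set in liver by both the brain's pacemaker and the timing of meals. ARNTL (also called BMAL1) pairs with CLOCK or its paralogue NPAS2 and binds E-box motifs to switch on the Per and Cry genes, the *Nr1d* genes and *Dbp*. PER and CRY proteins then hold back ARNTL:CLOCK, and REV-ERBα and REV-ERBβ, the products of *Nr1d1* and *Nr1d2*, bind ROR elements and repress *Arntl*, *Npas2* and *Cry1*. DBP is a PAR bZIP factor that acts at D-box motifs in liver genes. As a rule the mRNAs of *Arntl* and *Npas2* in liver peak when those of *Nr1d1*, *Nr1d2* and *Dbp* are lowest, so samples taken at different phases of the cycle show them in opposition.

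The genes' promoters were searched for the motifs through which this loop acts, and the windows shown are those of the 4 genes that held one. RefSeq promoter windows (GRCm38.p6, 250 bases before to 50 after a transcription start) were at hand for 9 of the 10 genes, 13 windows in all. *Per2* had no entry. The letters searched on both strands were CACGTG for the E-box, TTATGNAA for the D-box and TAGGTCA for the core of the ROR and REV-ERB element. The E-box occurred in 7.15% of 32851 windows of this length, the D-box in 3.38% and the ROR and REV-ERB core in 2.61%. In the sequences below, printed 5′ to 3′ along the gene's strand, capitals mark the motif letters found.
Arntl (chr7:113207261-113207560, plus strand, second of its start sites): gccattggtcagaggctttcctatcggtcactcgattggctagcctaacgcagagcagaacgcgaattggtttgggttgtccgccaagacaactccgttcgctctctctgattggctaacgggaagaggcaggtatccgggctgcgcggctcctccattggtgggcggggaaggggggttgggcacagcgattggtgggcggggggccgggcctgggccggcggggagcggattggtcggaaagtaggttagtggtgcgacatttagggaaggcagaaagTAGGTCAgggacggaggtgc
Cry1 (chr10:85185005-85185304, minus strand): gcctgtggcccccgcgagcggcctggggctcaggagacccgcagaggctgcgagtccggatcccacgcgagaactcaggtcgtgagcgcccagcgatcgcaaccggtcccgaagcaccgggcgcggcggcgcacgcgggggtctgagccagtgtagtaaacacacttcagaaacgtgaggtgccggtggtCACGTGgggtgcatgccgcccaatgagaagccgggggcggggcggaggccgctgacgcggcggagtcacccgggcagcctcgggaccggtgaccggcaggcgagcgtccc
Per1 (chr11:69098699-69098998, plus strand, first of its start sites): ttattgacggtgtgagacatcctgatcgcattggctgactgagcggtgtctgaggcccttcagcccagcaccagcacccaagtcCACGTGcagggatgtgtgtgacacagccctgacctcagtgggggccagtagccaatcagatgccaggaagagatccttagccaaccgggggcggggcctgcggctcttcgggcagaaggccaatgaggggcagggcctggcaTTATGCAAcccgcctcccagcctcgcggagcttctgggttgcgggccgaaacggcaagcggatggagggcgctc
Per3 (chr4:151044616-151044915, minus strand): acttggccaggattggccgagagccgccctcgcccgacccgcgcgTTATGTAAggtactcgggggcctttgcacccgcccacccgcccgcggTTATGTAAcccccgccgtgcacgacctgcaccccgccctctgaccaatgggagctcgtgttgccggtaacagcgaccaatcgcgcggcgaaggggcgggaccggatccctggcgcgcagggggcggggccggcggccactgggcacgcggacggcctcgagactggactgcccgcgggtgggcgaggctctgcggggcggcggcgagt

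The *Arntl* window held the ROR and REV-ERB core 30 bases after the start. *Cry1* held an E-box 60 bases before its start. *Per1* held an E-box 166 bases before and a D-box 24 bases before, and *Per3* held D-boxes 205 and 158 bases before. The windows of *Clock*, *Npas2*, *Nr1d1*, *Nr1d2* and *Dbp* had none of these letters. A match is a description of the sequence, not a site shown to be bound.

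Libraries held 36056177 to 57298657 counts. *Hgfac* itself was first checked against the genotype labels. It was 183 to 219 CPM (counts scaled to a fixed library size) in control mice on chow and 65.4 to 84.5 CPM in HGFAC-KO mice on chow, and 247 to 296 CPM against 81.8 to 101 CPM on HF/HS diet, so the groups did not overlap. Reads from outside the deleted part of the gene still count toward it. Hepatocyte markers (*Alb*, *Ttr*, *Apoa1*, *Cps1*) summed to between 70880 and 109808 CPM in every liver. 1 chow-fed HGFAC-KO mouse, replicate 4, stood apart from its group for several clock genes, and the comparisons that rest on it are given with and without it. Bulk liver RNA cannot tell fewer cells of a type from less RNA per cell.

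Levels between genes were compared as mean CPM per kilobase of annotated exon over the 27 mice. *Nr1d1* was highest at 23.0 and *Per2* followed at 12.2. *Dbp* at 8.21 and *Nr1d2* at 7.16 came next, then *Cry1* at 5.60, *Per1* at 4.47, *Clock* at 3.64, *Arntl* at 2.70, *Per3* at 1.41 and *Npas2* at 0.883. The order of neighbours such as *Dbp* and *Nr1d2* was not fixed, since *Dbp* ranged from 3.42 to 60.7 CPM between mice and *Nr1d2* from 16.7 to 64.0 CPM. 18.01% of the annotated exon bases of *Dbp* are shared with *Sphk2* and 8.55% of those of *Nr1d1* with *Thra*, each on the opposite strand. The library kit keeps strand, but whether the counting used it is not given in the sources used here.

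*Arntl*, the partner without which the positive limb does not work, lay lowest in control mice on HF/HS diet. It ranged from 13.9 to 25.5 CPM with a median of 19.7 in control mice on chow, and from 11.4 to 18.7 with a median of 15.9 in control mice on HF/HS diet. HGFAC-KO mice had 22.9 to 30.0 CPM on chow apart from replicate 4, which had 11.9. On HF/HS diet they had 17.4 to 30.2 CPM with a median of 20.5, and 6 of the 7 lay above the highest control mouse on that diet. *Npas2*, the paralogue of *Clock*, ranked the mice much as *Arntl* did. Its medians were 3.88 CPM in control mice on chow, 5.55 in HGFAC-KO mice on chow, 2.84 in control mice on HF/HS diet and 4.39 in HGFAC-KO mice on HF/HS diet, within a range of 1.25 to 9.64 CPM. *Clock* was nearly level, with group medians of 54.6, 44.8, 48.3 and 50.4 CPM in the same order and groups that overlapped.

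The genes of the negative limb did not all follow one order of groups. *Nr1d1* ranged from 36.4 to 84.6 CPM with a median of 58.8 in control mice on chow and from 61.5 to 127 with a median of 98.2 in control mice on HF/HS diet. In HGFAC-KO mice the chow group spanned 23.7 to 83.2 CPM around a median of 47.0, and the HF/HS group 32.9 to 131 CPM around a median of 83.4. *Nr1d2* had medians of 31.5 CPM in control mice on chow, 25.3 in HGFAC-KO mice on chow, 54.2 in control mice on HF/HS diet and 39.6 in HGFAC-KO mice on HF/HS diet. *Per3*, which shapes the phase of peripheral clocks, had medians of 12.8, 8.85, 17.3 and 10.7 CPM in that order. *Cry1*, a repressor that peaks later than the other genes of its limb, ran the other way, with medians of 16.0 and 16.2 CPM in the control groups on chow and HF/HS diet and 20.2 and 21.5 CPM in the HGFAC-KO groups.

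*Per1* and *Per2* are also induced acutely, through CREB and glucocorticoid signalling, apart from the loop. *Per1* ranged from 7.43 to 58.0 CPM in HGFAC-KO mice on chow and from 10.4 to 77.3 CPM in control mice on HF/HS diet, against 15.1 to 33.6 CPM in control mice on chow and 8.45 to 43.5 CPM in HGFAC-KO mice on HF/HS diet. *Per2* stayed between 48.9 and 97.7 CPM in all mice.

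*Dbp*, the output gene, spread most. It ranged from 4.88 to 36.6 CPM with a median of 15.2 in control mice on chow, and from 22.3 to 60.7 CPM with a median of 47.2 in control mice on HF/HS diet. In HGFAC-KO mice on chow 5 of 6 lay between 3.42 and 13.1 CPM and replicate 4 at 39.9 CPM. HGFAC-KO mice on HF/HS diet parted into 3 livers between 4.17 and 9.73 CPM and 4 between 26.8 and 42.2 CPM.

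**Figure D1:**
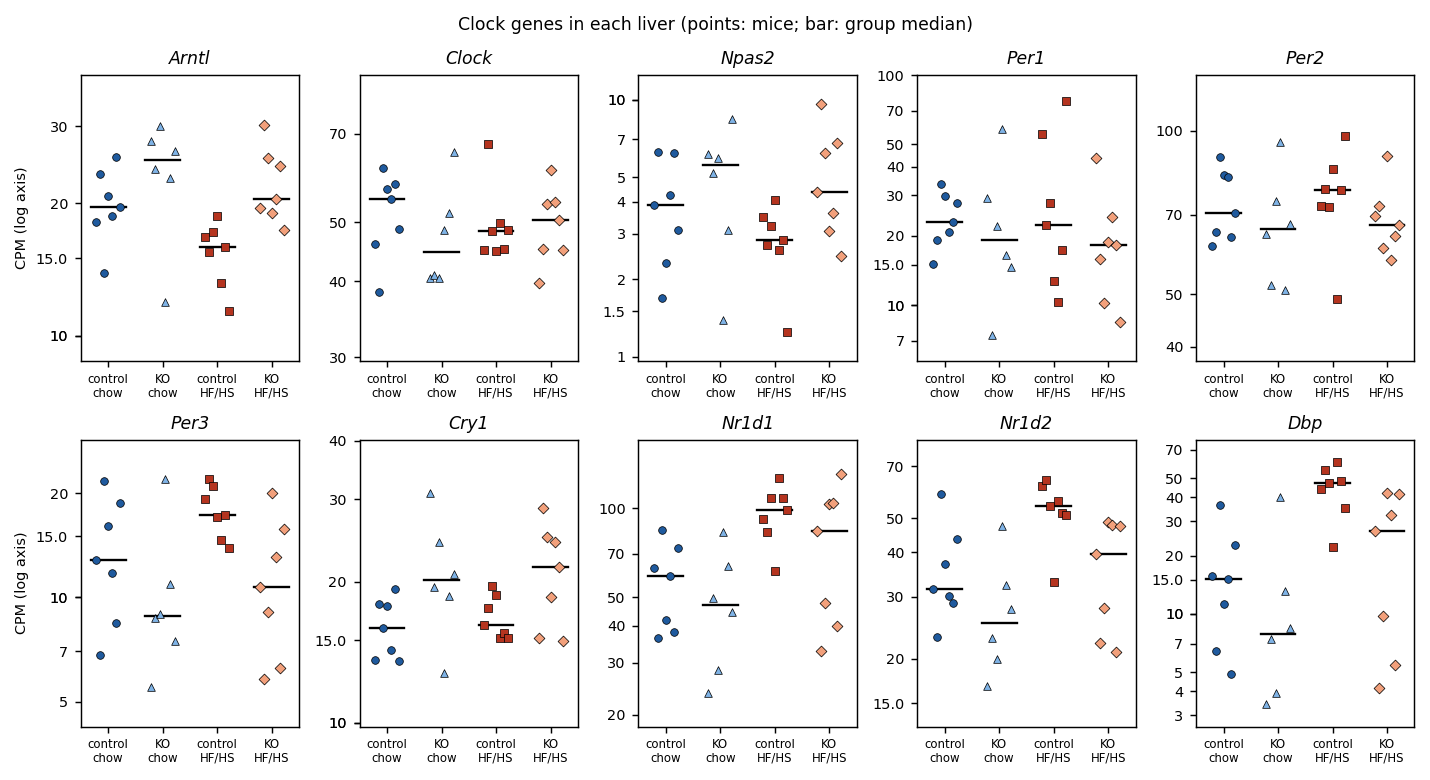
Level of each clock gene in each of the 27 livers, in CPM on a log axis, by group; each point is a mouse and the bar is the group median. *Dbp* spans 3.42 to 60.7 CPM and *Clock* only 38.4 to 67.4 CPM. Chow-fed HGFAC-KO replicate 4 is the lowest of its group for *Arntl* and *Npas2* and the highest for *Per3* and *Dbp*.

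The first comparison set HF/HS diet against chow in control mice, and here *Nr1d1* and *Dbp* were higher on HF/HS diet. As the hour at which livers were taken is not given, its part in this and the other group comparisons was not tested. *Dbp* went from 16.1 ± 10.8 to 44.7 ± 12.8 CPM (mean ± SD, n = 7 in each group), a log2 change of 1.47 ± 0.39 (SE, edgeR's quasi-likelihood test, adjusted p = 0.0284). 5 of 7 mice on HF/HS diet lay above every control mouse on chow. *Nr1d1* went from 56.5 ± 18.6 to 96.8 ± 20.9 CPM, a log2 change of 0.77 ± 0.20 (edgeR, adjusted p = 0.0272), again with 5 of 7 mice above all on chow. The exact two-sided permutation test over mice gave p = 0.00291 for *Dbp* and p = 0.00524 for *Nr1d1*, where 3432 splits allow no less than 0.000583. The 2 genes called compare with 10.5% of the 13525 genes tested in this comparison, so the share of clock genes lay near the background.

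The other 8 clock genes did not pass the adjusted threshold in that comparison. *Nr1d2* had a log2 change of 0.55 ± 0.19 (edgeR, adjusted p = 0.0784) and *Arntl* one of −0.37 ± 0.12 (adjusted p = 0.0717), both under 0.05 before adjustment. All 6 genes of the negative limb had a positive estimate, with a median of 0.38. All 3 of the positive limb had a negative one, with a median of −0.37, against a median of 0.00 over all genes tested. Many of the clock genes vary together between mice, as given below. Counts over these genes, in this and the other comparisons, are therefore not counts of separate observations. *Per3* at 0.37 ± 0.22, *Per1* at 0.39 ± 0.41 and *Npas2* at −0.46 ± 0.29 had wide errors. *Per2* at 0.04 ± 0.13, *Cry1* at 0.07 ± 0.09 and *Clock* at −0.06 ± 0.11 lay near 0. Without control HF/HS replicate 7 *Per1* was at 0.0063 and *Per2* at −0.024. The calls sat close to the threshold: without single mice the count ran from 0 to 4, with none called without control chow replicate 2 or 4 or control HF/HS replicate 5, and 4 called (*Arntl*, *Nr1d2*, *Nr1d1*, *Dbp*) without control chow replicate 3 or control HF/HS replicate 4. Left out in turn, control chow replicates 1 and 5 and control HF/HS replicate 2 left *Nr1d1* alone called and control chow replicate 6 left *Dbp* alone. DESeq2 called those same 4 genes, limma voom 3, and a fit over all 27 mice called none, where they called 14.3%, 10.7% and 10.2% of all genes.

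The same diet comparison in HGFAC-KO mice gave no call among the 10 genes by edgeR, where 5.89% of 13613 genes passed, and none was under 0.05 before adjustment. DESeq2 and limma voom also called none. *Dbp* had means of 12.7 ± 13.8 CPM on chow (n = 6) and 23.1 ± 16.5 CPM on HF/HS diet (n = 7), a log2 change of 0.88 ± 0.69 (edgeR, adjusted p = 0.494). *Nr1d1* changed by 0.67 ± 0.37 (adjusted p = 0.320) and *Nr1d2* by 0.39 ± 0.27 (adjusted p = 0.437). Without HGFAC-KO chow replicate 4 the estimates were 1.67 for *Dbp*, 0.88 for *Nr1d1* and 0.60 for *Nr1d2*, still short of the threshold. Of the 10 genes, 3 were then under 0.05 by edgeR before adjustment, against 20.6% of all genes. *Arntl* and *Cry1*, at −0.09 ± 0.18 and 0.00 ± 0.19, showed no difference beyond their spread.

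In the comparison of HGFAC-KO with control mice on HF/HS diet *Arntl* had the lowest p of the 10 genes. None of the 10 genes passed the adjusted threshold by edgeR, where 0.0148% of 13544 genes did, while 5 of the 10 were under 0.05 before adjustment, against 9.64% of all genes. *Arntl* was 22.4 ± 4.50 CPM in HGFAC-KO mice and 15.5 ± 2.50 CPM in control mice (n = 7 each), a log2 difference of 0.53 ± 0.13 by edgeR that ranked 27th among all genes. Its edgeR p was 0.000788 before and 0.331 after adjustment, and the exact permutation test over mice gave p = 0.00117. *Npas2* had an estimate of 0.84 ± 0.30 and *Cry1* one of 0.33 ± 0.13, on the same side as *Arntl*. *Per3* at −0.63 ± 0.24 and *Nr1d2* at −0.54 ± 0.21 were on the other side, each with an adjusted edgeR p of 0.448, and 5 of 7 HGFAC-KO mice lay below every control mouse for *Per3*. *Dbp* at −0.95 ± 0.48 and *Nr1d1* at −0.32 ± 0.29 had larger errors, and *Clock* was at 0.00 ± 0.10. *Nr1d1* was at −0.50 without HGFAC-KO HF/HS replicate 7 and at −0.19 without replicate 2 of that group. DESeq2, which called 55 genes here against 2 by edgeR, put *Arntl* past the threshold (adjusted p = 0.0342), and limma voom called none of the 10.

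On chow, none of the 10 genes differed between HGFAC-KO and control mice past the adjusted threshold by edgeR or limma voom, against 0.00737% of 13571 genes by edgeR. Before adjustment 1 of the 10, *Cry1*, was under 0.05, against 5.98% of all genes, and 5 of the 10 were without HGFAC-KO chow replicate 4, against 7.15%. *Cry1* was 21.1 ± 6.07 CPM in HGFAC-KO mice (n = 6) and 16.1 ± 2.32 CPM in control mice (n = 7), a log2 difference of 0.41 ± 0.16 (edgeR, adjusted p = 0.801). *Arntl* and *Npas2* had estimates of 0.26 ± 0.18 and 0.36 ± 0.38, and *Nr1d2*, *Per3*, *Dbp* and *Nr1d1* of −0.37 ± 0.26, −0.38 ± 0.33, −0.35 ± 0.61 and −0.21 ± 0.30. Without replicate 4 *Arntl* was at 0.39, *Npas2* at 0.55, *Per3* at −0.72, *Nr1d2* at −0.59, *Dbp* at −1.14 and *Nr1d1* at −0.42. None of them passed the threshold. *Per1* changed sign, from 0.03 to −0.42. Other mice moved single estimates toward 0: *Dbp* was at −0.0044, *Per3* at −0.24 and *Nr1d2* at −0.21 without control chow replicate 3, *Npas2* at 0.15 without HGFAC-KO chow replicate 6, and *Nr1d1* at −0.067 and *Cry1* at 0.26 without HGFAC-KO chow replicate 1.

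Whether the genotype difference itself differed between the diets was tested over all 27 mice, and no clock gene passed by edgeR, DESeq2 or limma voom, nor was any under 0.05 before adjustment. Over all 13932 genes 0% passed by edgeR, with 506 under 0.05 before adjustment. The estimates were 0.28 ± 0.23 for *Arntl*, 0.49 ± 0.50 for *Npas2* and −0.60 ± 0.79 for *Dbp*. Without HGFAC-KO chow replicate 4 *Arntl* was at 0.14 and *Dbp* changed sign to 0.20. *Npas2* was at 0.26 without HGFAC-KO HF/HS replicate 2. None of these passed the threshold. The calls in control mice on HF/HS diet are therefore not shown to differ from the changes in HGFAC-KO mice. The diet and genotype comparisons share groups, so their estimates are not independent of each other.

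**Figure D2:**
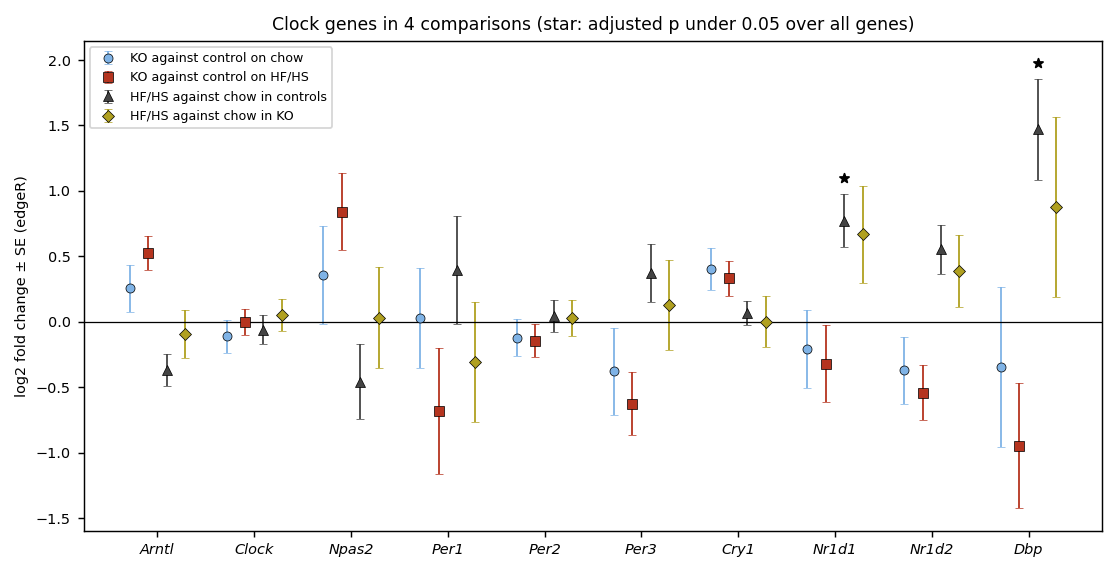
log2 fold change with its SE for each clock gene in the diet and genotype comparisons, from edgeR; a star marks an adjusted p under 0.05 over all genes. *Dbp* and *Nr1d1* carry a star for the diet in control mice, and *Arntl* and *Npas2* lie above 0 and *Per3*, *Nr1d2* and *Dbp* below 0 for HGFAC-KO against control mice on either diet.

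Mice of the same group differed more in the clock genes than in the typical liver gene. The SD between mice within groups, on the log2 scale, was 1.10 for *Dbp*, 0.84 for *Per1*, 0.71 for *Npas2*, 0.59 for *Nr1d1* and 0.56 for *Per3*. It was 0.46 for *Nr1d2*, 0.33 for *Arntl*, 0.30 for *Cry1*, 0.27 for *Per2* and 0.23 for *Clock*, and the median over 13932 genes was 0.18. Counting error adds most to the gene with the fewest reads, *Npas2*, which had 52 to 451 counts in a library. By this SD *Dbp* ranked 40th, *Per1* 140th and *Npas2* 311th of all genes. 59.6% of the variance of *Dbp*, 64.8% of that of *Nr1d1* and 64.4% of that of *Arntl* lay within groups, against 96.2% for *Clock* and a median of 81.2% over all genes. Without HGFAC-KO chow replicate 4 the SD of *Dbp* was 1.00 and that of *Arntl* 0.25. *Dbp* was tightest in control mice on HF/HS diet, with an SD of 0.48 against 1.00 in control mice on chow, 1.29 in HGFAC-KO mice on chow (0.80 without replicate 4) and 1.41 in HGFAC-KO mice on HF/HS diet. *Per1* was tightest in control mice on chow, at 0.40 against 0.78 to 1.07 in the other groups, or 0.74 in HGFAC-KO mice on chow without replicate 4.

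Within groups, 5 of the other 9 clock genes varied with *Arntl* from mouse to mouse. Each mouse's deviation from its group mean on the log2 CPM scale was set against that of *Arntl*, and p-values came from 100000 permutations of mice within groups, with 1e-05 the smallest they can give. *Npas2* rose with *Arntl* (Pearson's r = 0.90, p = 1e-05; Spearman's rho = 0.88, p = 1e-05; 27 mice), as did *Cry1* (r = 0.79, p = 5e-05; rho = 0.81, p = 4e-05). *Dbp* (r = −0.84, p = 1e-05; rho = −0.85, p = 2e-05), *Nr1d1* (r = −0.80, p = 1e-05; rho = −0.86, p = 1e-05) and *Nr1d2* (r = −0.77, p = 1e-05; rho = −0.76, p = 3e-05) ran against it. These 5 passed the permutation test adjusted over 13931 genes (adjusted p between 0.0155 and 0.0363), where 59 genes or 0.424% did. With the replicate number added as a block, 0 of the 13931 genes passed. That *Arntl* and its *Nr1d* repressors oppose each other is the known form of the loop, and the genes had been chosen as parts of it.

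The other 4 did not pass. *Per3* was at r = −0.69 (permutation p = 0.00052, adjusted p = 0.0717; rho = −0.62, p = 0.00194). *Per1* was at r = −0.37 (permutation p = 0.0906, adjusted p = 0.475; rho = −0.20, p = 0.347) and *Per2* at r = −0.36 (p = 0.111, adjusted p = 0.510; rho = −0.16, p = 0.434). *Clock* was at r = −0.18 (permutation p = 0.431, adjusted p = 0.776; rho = −0.23, p = 0.268).

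The relations were checked without the 2 mice with the most extreme *Arntl* deviation, HGFAC-KO chow replicate 4 and control chow replicate 3. *Npas2* was then at r = 0.84, *Nr1d1* at −0.80, *Cry1* at 0.78, *Dbp* at −0.78, *Nr1d2* at −0.65 and *Per3* at −0.50. *Clock* was at −0.10, and *Per1* at −0.09 and *Per2* at 0.04 kept little of their relation, which rested on those mice. With these mice left out only 3 genes of 13931 passed the permutation test, *Npas2* and *Cry1* among them. A limma regression on *Arntl* with the group as covariate, added after seeing the data, called 40 genes with all mice and 5 without those 2. *Per3* joined the other 5 in the first, and *Npas2*, *Cry1*, *Nr1d1* and *Dbp* were called in both.

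The relations were also read within each group. *Npas2* was at r = 0.80, 0.92, 0.94 and 0.97 in control chow, HGFAC-KO chow, control HF/HS and HGFAC-KO HF/HS mice. *Dbp* was at −0.94 in each group except control mice on HF/HS diet, where it was at −0.30. *Nr1d2* in that group was at −0.32 against −0.79 to −0.89 elsewhere, and *Per3* at 0.69 against −0.78 to −0.91 elsewhere. Some values in control mice on HF/HS diet rested on single mice. Without replicate 7, which had the lowest *Arntl* of that group, *Dbp* was at −0.81, *Nr1d2* at −0.57 and *Per3* at 0.44 there, and without replicate 4 *Dbp* was at 0.33 and *Nr1d2* at 0.45. *Per3* there was at 0.44 to 0.86 and *Cry1* at 0.67 to 0.82 with any single mouse left out. In the other groups *Dbp* stayed between −0.87 and −0.99 with any single mouse left out, but *Per3* in HGFAC-KO mice on chow went from −0.91 to −0.50 without replicate 4, and *Nr1d2* in control mice on chow from −0.79 to −0.47 without replicate 3. The values rest on 6 or 7 mice each and the differences between groups were not tested.

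**Figure D3:**
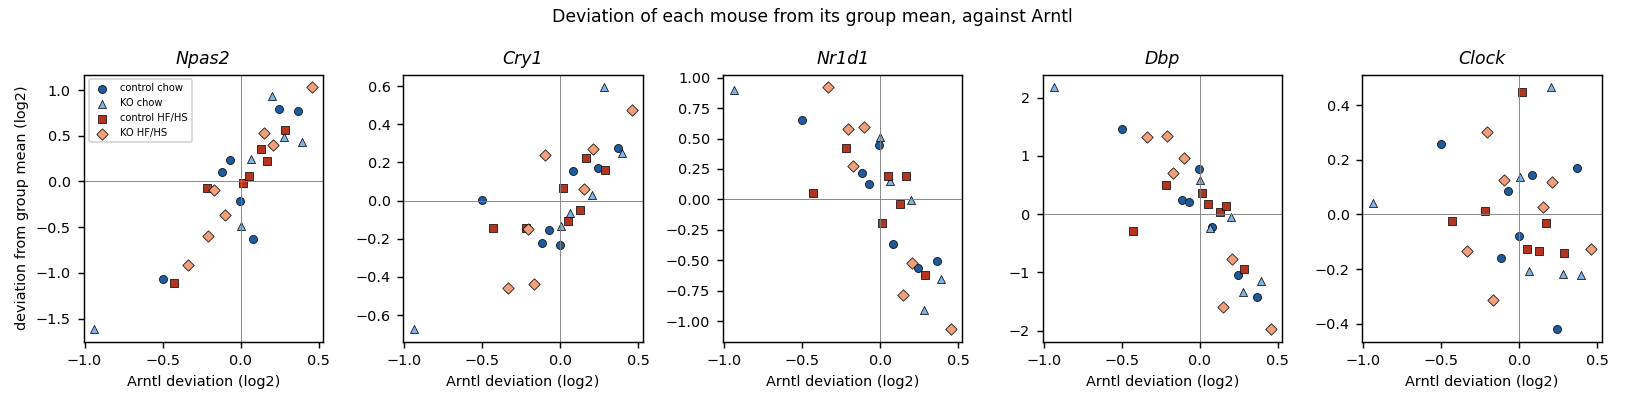
Deviation of each mouse from its group mean for *Npas2*, *Cry1*, *Nr1d1*, *Dbp* and *Clock* (y axis, log2) against the deviation of *Arntl* (x axis, log2), with the group shown by colour and shape. *Npas2* and *Cry1* climb with *Arntl*, *Nr1d1* and *Dbp* descend, *Clock* shows no slope, and HGFAC-KO chow replicate 4 sits at the far left at −0.94.

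Between the clock genes themselves, *Nr1d1* and *Dbp* were the tightest pair at r = 0.95 over the 27 mice, followed by *Nr1d2* and *Dbp* at 0.94, *Arntl* and *Npas2* at 0.90, *Nr1d1* and *Nr1d2* at 0.89, *Per3* and *Dbp* at 0.89 and *Per3* and *Nr1d2* at 0.88. *Per1* and *Per2* formed a looser pair at 0.58, and *Per1* was at 0.20 with *Dbp* and 0.09 with *Nr1d1*. *Clock* was highest with *Nr1d2*, at 0.44. Without HGFAC-KO chow replicate 4 the tight pairs stayed between 0.85 and 0.95, while *Per1* and *Per2* were at 0.48, and *Per1* at 0.02 with *Dbp* and −0.06 with *Nr1d1*. These values describe libraries that share all their measurements, and no test was made on them.

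**Figure D4:**
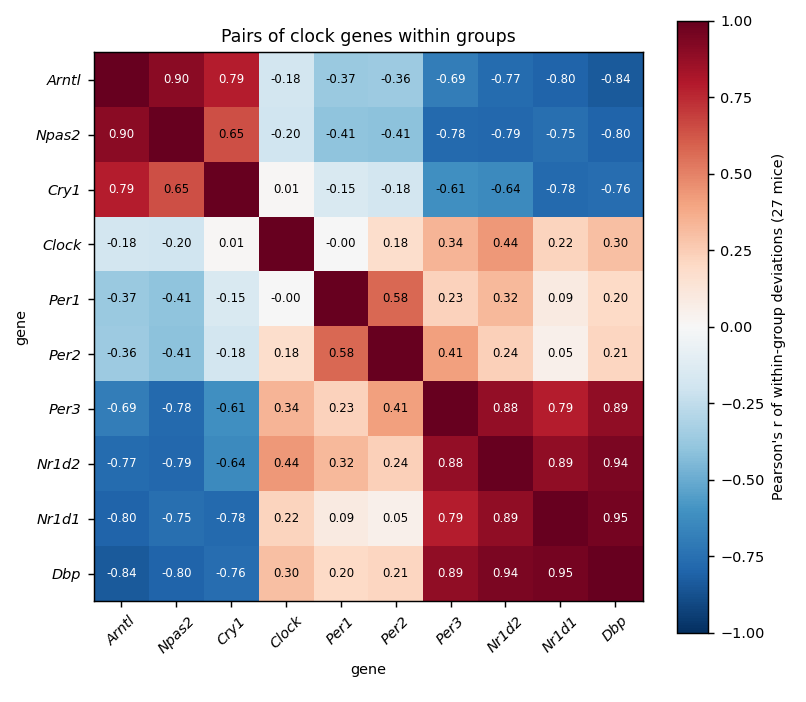
Pearson's r of within-group deviations for every pair of clock genes over 27 mice, on a scale from −1 (blue) to 1 (red). *Arntl*, *Npas2* and *Cry1* form a red block, *Per3*, *Nr1d2*, *Nr1d1* and *Dbp* another, and the squares between those blocks are blue, from −0.61 to −0.84.

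The genes whose within-group pattern was most like that of *Arntl* were sought among 11840 genes with a mean of at least 1 CPM. The 5 highest were *Npas2* (r = 0.90), *Leo1* (0.79), a subunit of the PAF1 transcription elongation complex, *Dapk1* (0.79), a calmodulin-regulated kinase, *Cry1* (0.79) and *Dnmt3b* (0.75), a DNA methyltransferase. The 5 lowest were *Dbp* (−0.84), *Nr1d1* (−0.80), *Bhlhe41* (−0.80), *Nr1d2* (−0.77) and *1810055G02Rik* (−0.77). *Bhlhe41* encodes DEC2, a repressor that competes at E-boxes, and was not used in choosing the clock genes. *Per3* ranked 17th from the bottom.

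Of 16 further components of the clock, 3 passed the permutation test for a relation with *Arntl* adjusted over all genes, all negative: *Bhlhe41* (adjusted p = 0.0363), *Ciart*, a repressor of ARNTL:CLOCK (r = −0.76, adjusted p = 0.0443), and *Tef*, a PAR bZIP relative of *Dbp* (r = −0.74, adjusted p = 0.0155), where 0.424% of all genes passed. Without the 2 mice farthest in *Arntl* none of these 3 passed, and *Bhlhe41* was at r = −0.66, *Ciart* at −0.63 and *Tef* at −0.67. *Cry2* was at r = −0.61 (permutation, adjusted p = 0.0798), opposite in sign to *Cry1*. *Nfil3*, which competes with DBP at D-boxes, was at 0.35, short of the threshold. The kinases *Csnk1d* and *Csnk1e* were at −0.08 and −0.04, and at 0.11 and 0.01 without those mice. None of the genes in the lists of rhythmic liver outputs (13), glucocorticoid-responsive genes (9), fasting-induced genes (8), feeding-induced genes (5) or immediate early and heat shock genes (8) passed that permutation test after adjustment. The strongest of them were *Zbtb16*, a glucocorticoid-responsive factor (r = −0.64, adjusted p = 0.0949), *Usp2* (r = −0.57, adjusted p = 0.232), *Angptl4* (r = −0.56, adjusted p = 0.186) and *Pck1* (r = −0.52, adjusted p = 0.247).

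The deviation of *Arntl* was set beside library and tissue measures in the same mice. Over 9 such measures none passed the permutation test after adjustment. The summed stellate cell markers were at r = 0.41 (permutation p = 0.0727, adjusted p = 0.327) and the summed cholangiocyte markers at 0.38 (permutation p = 0.0365, adjusted p = 0.327). Total counts were at −0.05, the share of counts on rows without a gene name at 0.23, and the summed hepatocyte markers at −0.02. The part of these measures in the relations among clock genes was not tested beyond this.

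A single value for each mouse set positive limb genes against genes that ARNTL drives: the mean log2 CPM of *Arntl*, *Clock* and *Npas2* minus that of *Per1*, *Per2*, *Per3*, *Nr1d1*, *Nr1d2* and *Dbp*. *Cry1* was left out because it peaks later than the rest of the negative limb, and *Dbp* was included as an E-box target. It ran from −2.06 to 0.06 with a median of −0.85 in control mice on chow and from −2.52 to −1.02 with a median of −1.75 in control mice on HF/HS diet. HGFAC-KO mice spanned −2.46 to 0.29 on chow, with the median at 0.04, and −1.54 to 0.51 on HF/HS diet, with the median at −1.25. 5 of 6 chow-fed HGFAC-KO mice lay at −0.69 or above and replicate 4 at −2.46. HGFAC-KO mice on HF/HS diet again parted, 3 between −0.01 and 0.51 and 4 between −1.54 and −1.25. Replicates 2, 3 and 6 were the 3 near or above 0. The same mice had the lowest *Dbp*, which is itself part of this value and so not a separate observation. With *Cry1* in and *Dbp* out, a choice added after seeing the data, the medians were −0.81, −0.29, −1.48 and −1.18 in control chow, HGFAC-KO chow, control HF/HS and HGFAC-KO HF/HS mice.

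**Figure D5:**
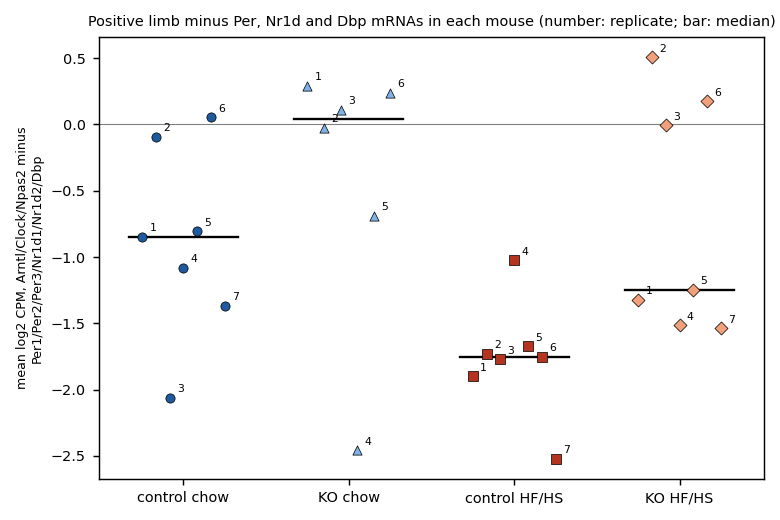
Mean log2 CPM of *Arntl*, *Clock* and *Npas2* minus that of *Per1*, *Per2*, *Per3*, *Nr1d1*, *Nr1d2* and *Dbp* for each mouse (y axis) by group (x axis); numbers are replicates and bars medians. Control mice on HF/HS diet all lie at −1.02 or below, while the other groups reach from below −1.5 to above 0.

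Among other genes around the clock, some passed the test for diet and none that for genotype. In control mice on HF/HS diet 3 of 13 rhythmic liver outputs passed edgeR's adjusted test: *Rgs16*, a regulator of G-protein signalling (log2 change 2.42, edgeR adjusted p = 0.0110), and *Elovl3*, a fatty acid elongase (0.81, adjusted p = 0.00249), rose, and *Por*, the electron donor of P450 enzymes, fell by 0.49 (adjusted p = 0.000883). *Klf9* rose (0.56) and *Tat*, tyrosine aminotransferase, fell by 0.51 among 9 glucocorticoid-responsive genes. *Cpt1a* (0.41) and *Angptl4* (0.85), both targets of PPARα, rose among 8 fasting-induced genes, and pyruvate kinase *Pklr* (0.73) rose among 5 feeding-induced genes. None of 8 immediate early and heat shock genes passed, with 1, *Egr1*, under 0.05 before adjustment (edgeR, adjusted p = 0.116). Over the 59 genes of these lists edgeR called 9, limma voom 10 and DESeq2 15, beside 10.5%, 10.7% and 14.3% of all genes tested, so the edgeR and limma voom shares lay near the background.

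In HGFAC-KO mice the diet moved *Rgs16* (log2 change 2.20, edgeR adjusted p = 0.0421), *Por* (−0.67, adjusted p = 0.00118) and *Tat* (−0.75, adjusted p = 0.0121) in the same direction, and no other gene of these lists passed. *Rgs16* was not called without HGFAC-KO chow replicate 4, nor by limma voom, which called 2 of the 59 genes, while DESeq2 called 8. Over all genes edgeR called 5.89%, limma voom 5.85% and DESeq2 10.3%. Median log2 changes of the lists in control and HGFAC-KO mice were 0.06 and 0.00 for the further clock components, −0.02 and −0.03 for rhythmic outputs, 0.03 and −0.26 for glucocorticoid-responsive genes, 0.47 and 0.24 for fasting-induced genes and 0.14 and −0.03 for feeding-induced genes. For immediate early and heat shock genes they were 0.16 and 0.27, against 0.00 over all genes tested in either genotype.

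No gene of these 6 lists passed the adjusted test of edgeR, DESeq2 or limma voom between genotypes on either diet, nor for the difference between diets. On HF/HS diet 16 of the 59 genes were under 0.05 by edgeR before adjustment, against 9.64% of all genes, and the lowest p belonged to *Arntl2* among further clock components, *Cdkn1a* among rhythmic outputs, *Klf9* among glucocorticoid-responsive, *Pck1* among fasting-induced and *Ier2* among immediate early and heat shock genes. On chow 1 of the 59 was, *Mt1*, and 13 were without HGFAC-KO chow replicate 4, against 5.98% and 7.15% of all genes. The median log2 difference of HGFAC-KO from control mice on HF/HS diet was −0.40 for fasting-induced and −0.31 for glucocorticoid-responsive genes, with *Pck1*, which encodes the gluconeogenic enzyme PEPCK, at −0.97 (edgeR, adjusted p = 0.454) and *Klf9* at −0.36 (adjusted p = 0.448). For immediate early and heat shock genes it was 0.50, with 3 of 8 under 0.05 before adjustment. On chow the medians were −0.27 for fasting-induced, −0.03 for glucocorticoid-responsive and 0.14 for immediate early and heat shock genes.

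Cell type markers were read in the same livers. On HF/HS diet the summed hepatocyte markers spanned 70880 to 88579 CPM in control mice, and HGFAC-KO mice spanned 81897 to 109808 CPM. Cholangiocyte markers spanned 11.7 to 25.7 and 20.4 to 40.6 CPM in the same order. On chow hepatocyte markers spanned 71518 to 84820 against 83143 to 94183 CPM, and cholangiocyte markers 14.2 to 32.4 against 25.7 to 37.2 CPM. On HF/HS diet Kupffer cell markers ran from 124 to 252 CPM in control mice and 120 to 208 CPM in HGFAC-KO mice. On chow they ran from 91.4 to 180 and 92.5 to 138 CPM. In HGFAC-KO mice 3 of 4 Kupffer cell markers rose with the diet by edgeR's adjusted test, as did the leukocyte marker *Ptprc* (log2 change 0.63) and the sinusoidal endothelial marker *Stab2* (0.42), in a comparison in which no clock gene did. Leukocyte markers summed to 6.15 to 16.6 CPM, sinusoidal endothelial markers to 79.0 to 185 CPM, stellate cell markers to 120 to 244 CPM and red blood cell markers to 41.0 to 308 CPM over all livers, and no marker was at 0 in all mice. In the diet comparison of control mice red blood cell markers were all estimated lower, with *Hba-a2* fallen by 1.02 (edgeR, adjusted p = 0.0238). Of the single markers, 1 of 4 stellate cell markers, *Lrat*, fell by 0.60 (edgeR, adjusted p = 0.0273) and 1 of 4 hepatocyte markers, *Apoa1*, rose by 0.39 (adjusted p = 0.000292) there. The summed markers did not follow them, with medians of 186 and 205 CPM for stellate cells and 75195 and 75748 CPM for hepatocytes in control mice on chow and HF/HS diet. Beyond the relation of the summed markers to *Arntl* given above, the part of these cell types in the clock genes' values was not tested.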

How the data were processed

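Liver mRNA of 27 mice had been sequenced from stranded mRNA libraries. Per the labels and the study's methods, the authors aligned reads to mm10 (GRCm38) with HISAT2 and deposited a table of raw counts per gene from featureCounts version 1.6.3; the strand setting is not given in the sources used here. The deposited counts were used as they stand. The table has 27179 rows, of which 3886 carry no gene name. These took 4.13% to 12.1% of the counts of a library and were left out. For 89 symbols found on several rows, the counts were summed. Groups came from the labels. No 2 mice of a group had counts alike enough to be 1 library deposited again.

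Comparisons were made with edgeR 4.0.16 (R 4.3.3): TMM normalization, filterByExpr with a minimum count of 10, robust quasi-likelihood fits on the groups compared (all 27 mice for the interaction) and Benjamini-Hochberg adjustment over all genes, with 0.05 as the threshold. CPM were scaled by TMM factors over all 27 mice, and log2 CPM used a prior count of 2. Single genes were also tested by exact permutation over mice. The relation with *Arntl* used within-group deviations, permuted within groups. DESeq2 1.42.0, limma 3.58.1, upper-quartile scaling, other filters, a replicate block and leaving out each mouse were alternatives. The limma regression on *Arntl*, the spread without HGFAC-KO chow replicate 4, the values of r within single groups without single mice and the limb difference with *Cry1* and without *Dbp* were, with the other values given without HGFAC-KO chow replicate 4 or the 2 mice farthest in *Arntl* among gene pairs, group SDs and further clock components, added after seeing the data. The main edgeR, DESeq2 and limma voom fits, the permutation test of the relation with *Arntl* and the limma regression were tested on simulated data. The other settings were not. Gene positions and exon lengths came from GENCODE M21 on GRCm38, and promoter windows from RefSeq. The members and gene lists were chosen with earlier results of these data known. Genes named beside the members are, for each list and comparison, up to 4 of those past the threshold with the lowest p, or the lowest where none passed, and the 5 highest and 5 lowest in r with *Arntl*; the other values of r in the lists, *Zbtb16*, *Usp2*, *Angptl4* and *Pck1* among them, and the cell type markers named singly were picked after their values were seen. Some genes of the lists are not reported here by name, though they count in the totals of the lists.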

Additional observations from a re-analysis of the deposited data

Results flagged for a closer look

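Within each group every clock gene was checked for a highest or lowest mouse far from the rest by Dixon's ratio, 40 sets in all, and 4 passed the 95% critical value. Chance alone passes about 1 set in 20. *Per3* in HGFAC-KO chow replicate 4 was the highest of its group at 21.9 CPM, and *Dbp* in the same mouse was the highest at 39.9 CPM. *Clock* in control HF/HS replicate 2 was the highest of its group at 67.4 CPM. *Nr1d2* in control HF/HS replicate 4 was the lowest of its group at 33.1 CPM, and this mouse also had the lowest *Dbp* and *Nr1d1* and the highest *Arntl* of its group.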

How the results depend on the processing

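No count of clock genes past the threshold moved for HGFAC-KO against control mice on chow, for the diet in HGFAC-KO mice or for the difference between the diets, under any alternative that gave adjusted values; DESeq2 with independent filtering gave none for the 10 genes on chow. On HF/HS diet the count between genotypes was 1, *Arntl*, by DESeq2 with or without independent filtering, and 0 otherwise. For the diet in control mice it was 4 by DESeq2 in both forms, 0 in a fit of all 27 mice, and 0 to 4 with single mice left out. For the relation with *Arntl* it was 2 without the 2 mice farthest in *Arntl*, 6 with upper-quartile scaling, and 3 to 6 with single mice left out, at 3 without control HF/HS replicate 4, HGFAC-KO chow replicate 4 or HGFAC-KO HF/HS replicate 2 or 3. For DESeq2 and the joint fit the cause was not tested. Over all genes edgeR and DESeq2 called 1 and 13 (10 without independent filtering) between genotypes on chow, 2 and 55 on HF/HS diet, where edgeR called 5 without control HF/HS replicate 7 and 11 without HGFAC-KO HF/HS replicate 5, and 802 and 1401 for the diet in HGFAC-KO mice, where single mice left out gave 467 to 950. For the diet in control mice edgeR called 1424, or 774 with a replicate block. The relation with *Arntl* held 59 genes, 123 with upper-quartile scaling and 4 to 199 with single mice left out, at 4 without control chow replicate 3 or HGFAC-KO chow replicate 4.

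The labels do not say whether replicate numbers pair the mice, and the check was mixed. Of same-numbered pairs, the deviations correlated above 0.1 in 1 of 6 between genotypes on chow and 3 of 7 on HF/HS diet. Between diets this held in 0 of 7 in control mice and 4 of 6 in HGFAC-KO mice. In those HGFAC-KO pairs the median r was 0.13, against 0.0025 for other numbers. With a replicate block *Nr1d1* and *Dbp* were called for the diet in control mice and no clock gene in the other 4 comparisons, as without it, and 0 clock genes, as 0 of all genes, passed for the relation with *Arntl*, where r was 0.88 for *Npas2* and −0.79 for *Dbp*.

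Signs turned for a number of estimates, none past the threshold. With single mice left out they included *Dbp* for the difference between the diets, which went from −0.60 to 0.20 without HGFAC-KO chow replicate 4. *Per1* between genotypes on chow was −0.23 by limma voom and −0.16 with the replicate block, and *Clock* on HF/HS diet was 0.011 with upper-quartile scaling. *Cry1* for the diet in HGFAC-KO mice was 0.0080 by limma voom, 0.0028 with no filter, 0.10 with the replicate block and 0.0014 in the fit of all 27 mice. *Per2* for the difference between the diets was 0.015 by limma voom, and its r with *Arntl* was 0.036 without the 2 mice farthest in *Arntl*, by permutation and by limma regression.

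With single mice left out, *Per1* between genotypes on chow spanned −0.42 to 0.22, *Clock* on HF/HS diet −0.053 to 0.087, and *Per2* for the diet in control mice −0.024 to 0.13. For the diet in HGFAC-KO mice *Npas2* spanned −0.20 to 0.24, *Per1* −0.63 to 0.14, *Per2* −0.046 to 0.15, *Per3* −0.062 to 0.47 and *Cry1* −0.11 to 0.14. For the difference between the diets *Per2* spanned −0.11 to 0.11, *Per3* −0.44 to 0.10, *Cry1* −0.18 to 0.071, *Nr1d1* −0.29 to 0.11, *Nr1d2* −0.33 to 0.051 and *Dbp* −0.94 to 0.20. The clock genes held 52 to 5766 counts in a library, with counting error widest for *Npas2*.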
